A study of Homo sapiens with 11 samples.

Results

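The genes described here are 10 known targets of the transcription factor SRF, of the co-activator YAP, or of both: CCN1, CCN2, SRF itself, ANKRD1, AMOTL2, THBS1, ADAMTS1, RHOB, GEM and LATS2. Every probe whose annotation names one of these genes was taken, which gave 13 probes. The rule itself uses no measured value, but the genes were picked with earlier results of these data known. The array named 18836 genes in all. Of the 10 genes, 7 (9 probes) were bright enough to be tested, out of 9653 genes tested on the whole array. AMOTL2, THBS1 and LATS2 were not.

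HEK293T cells, a transformed line of human embryonic kidney origin, were transfected by lipofection with DNA for wild-type DFNA5 (wtDFNA5, 5 arrays) or mutant DFNA5 (mutDFNA5, 6 arrays). DFNA5, also called gasdermin E, is a pore-forming protein of programmed cell death, and mutant forms cause hearing loss and are toxic to transfected cells. Both groups therefore carry an introduced DFNA5 on top of the cells' own gene, and no array of empty-vector or untransfected cells is analysed here, so each value below is mutant against wild type. Sample titles call the mutant samples KO although no gene was deleted as far as the labels say. The labels give 6 h after transfection for the harvest and 12 h for the RNA extraction of the array samples. The study's methods call the replicates independent biological replicates, all of them of 1 cell line. The paper states that 1 of 6 wtDFNA5 samples failed quality control and was left out.

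SRF binds a DNA element called the CArG box together with either of 2 kinds of partner. The MRTF proteins are released when actin monomers are used up in filaments, and the ternary complex factors (ELK1, ELK3 and ELK4) are switched on by MAP kinase phosphorylation. YAP and its relative TAZ have no DNA-binding domain of their own and act through TEAD factors; the Hippo kinases, LATS1 and LATS2 among them, keep them out of the nucleus. CCN1, CCN2 and ANKRD1 are the genes most often read as a YAP signal, and several of the 10 answer to both SRF and YAP.

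Of the 10 genes, 7 had a promoter in the RefSeq table used (assembly GRCh38.p14), with 9 start sites between them. CCN1, ADAMTS1 and GEM were not matched. Windows of 300 bases, 250 before and 50 after the start, were searched on both strands for the CArG box and the TEAD motif GGAATG. They were also searched for TGANTCA, in which N is any base, a loose form here called the AP-1-like pattern. The CArG box was present in 1.29% of 35116 promoters and at 1 of the 9 starts, a start of SRF, where it occurred 2 times, 30 and 10 bases before the start. The TEAD motif was present in 14% of promoters and at 5 of the 9 starts, with 3 copies in CCN2, 2 in ANKRD1 and 1 each in THBS1, LATS2 and 1 of the 2 starts of AMOTL2. The AP-1-like pattern was in 7.71% of promoters and at 1 of the 9 starts, that of ANKRD1, with T as its middle base. The general ETS core GGAA, which lies inside every copy of the TEAD motif, was in 95.5% of promoters. A match describes the letters of these windows and is not evidence of binding. The 250 bases before the start are shown for 4 genes that hold matches there, chosen with their readouts known. CCN2 was called higher, SRF and ANKRD1 were not called, and THBS1 was not detected. A start of AMOTL2 that also holds a TEAD motif in these bases is not shown. Whether motifs go with the changes was not tested. Capitals mark the CArG boxes in SRF and the TEAD motifs in the other 3. In ANKRD1 the second run of capitals is the AP-1-like pattern.
SRF (chr6:43171019-43171268, plus strand): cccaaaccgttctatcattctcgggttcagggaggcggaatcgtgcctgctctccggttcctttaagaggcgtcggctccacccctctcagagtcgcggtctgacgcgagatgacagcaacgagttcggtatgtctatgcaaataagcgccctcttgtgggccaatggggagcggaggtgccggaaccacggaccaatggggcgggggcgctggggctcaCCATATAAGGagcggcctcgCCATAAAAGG
CCN2 (chr6:131951373-131951622, minus strand): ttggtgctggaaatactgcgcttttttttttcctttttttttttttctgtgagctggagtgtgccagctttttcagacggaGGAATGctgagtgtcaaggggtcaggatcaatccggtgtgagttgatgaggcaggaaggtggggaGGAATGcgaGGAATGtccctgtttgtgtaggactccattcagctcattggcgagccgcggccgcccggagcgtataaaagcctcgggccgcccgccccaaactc
ANKRD1 (chr10:90921088-90921337, minus strand): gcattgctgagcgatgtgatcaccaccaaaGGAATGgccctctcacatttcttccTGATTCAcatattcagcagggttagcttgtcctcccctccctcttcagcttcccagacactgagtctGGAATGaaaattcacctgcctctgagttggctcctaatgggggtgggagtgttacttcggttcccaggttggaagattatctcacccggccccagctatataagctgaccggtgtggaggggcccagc
THBS1 (chr15:39580829-39581078, plus strand): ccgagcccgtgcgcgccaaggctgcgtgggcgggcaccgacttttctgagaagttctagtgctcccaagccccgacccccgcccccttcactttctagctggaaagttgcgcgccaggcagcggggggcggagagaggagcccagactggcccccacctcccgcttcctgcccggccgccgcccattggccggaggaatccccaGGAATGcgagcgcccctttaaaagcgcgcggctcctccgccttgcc

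ADAMTS1, GEM and CCN2 rose in mutDFNA5-transfected cells, and none of the 7 tested genes was called lower. CCN1, SRF, RHOB and ANKRD1 did not pass the test. A gene was called when its adjusted p by limma, over all 14542 probes tested, was under 0.05. By that rule 4.05% of all genes tested were called higher and 4.92% lower, and 3 of the 7 genes described here were called higher and 0 lower. At an unadjusted p under 0.05 the counts were 4 higher (SRF with the 3) and 1 lower (ANKRD1), against 1061 higher and 1240 lower of the 9653 genes. Every mutDFNA5 array lay above every wtDFNA5 array for 2 of the 7, ADAMTS1 and GEM, and for 2.78% of all genes tested. The median log2 change of the 7 was 0.22, and that of all genes tested was -0.0055. The study's text already names ADAMTS1 and GEM among the genes raised on these arrays, so these calls are not independent evidence.

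**Figure D1:**
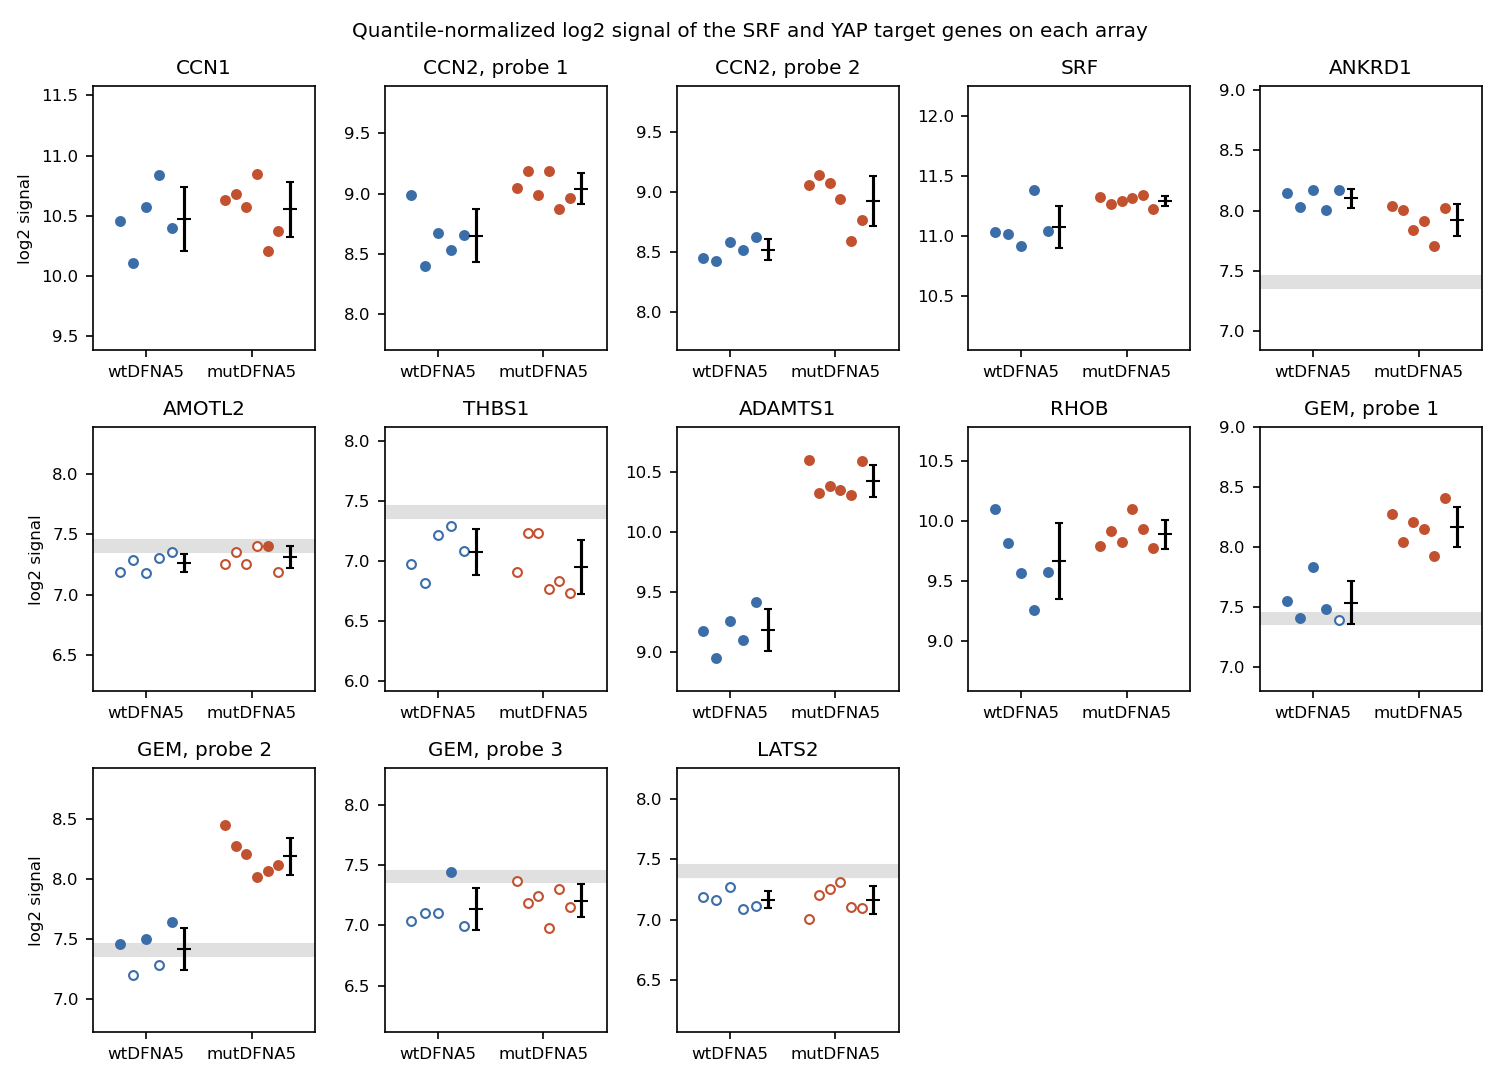
Quantile-normalized log2 signal (vertical axis, the same height in log2 units in every panel) of each of the 13 probes on each array, wtDFNA5 in blue and mutDFNA5 in orange. Filled points were detected (detection p under 0.01) and open points were not, black marks give the mean with SD, and the grey band spans the dimmest detected signal of the 11 arrays (7.36 to 7.46). The groups do not overlap for ADAMTS1 and for probes 1 and 2 of GEM, while the probes of AMOTL2, THBS1 and LATS2 lie in or below the band.

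The quality of the arrays bears on every value that follows. Between 14029 and 15443 of 42000 probes were detected per array, and array medians before normalization ran from 6.90 to 7.33 log2. The lowest median was that of wtDFNA5 replicate 4, which also had the lowest median correlation with its own group (0.990, against 0.992 to 0.993 for the other 10). The labelled cell line was checked with 6 genes by their brightest probes: VIM, LIN28B, KRT18 and NEFM were detected on all 11 arrays, and PAX2 and KRT8 on none. Their summed linear signal ran from 21147 to 23807 in wtDFNA5 and from 22756 to 25287 in mutDFNA5, and LIN28B (log2 change 0.29) and NEFM (0.75) were themselves called higher by limma. Of 6 fibroblast markers, also by their brightest probes, PDGFRA was detected on all 11 arrays (7.61 in wtDFNA5 and 7.59 in mutDFNA5), COL1A1 on 2 mutDFNA5 arrays, and COL1A2, COL3A1, LUM and DCN on none, although another DCN probe was detected on 1 wtDFNA5 array. The summed signal of the list was 847 to 908 in wtDFNA5 and 858 to 904 in mutDFNA5. Of 6 smooth muscle markers, MYH11, DES, LMOD1 and CNN1 were detected on no array, ACTA2 and SMTN on all, and SMTN was called higher (0.30); the list summed to 1471 to 1544 in wtDFNA5 and 1515 to 1638 in mutDFNA5. Of 5 endothelial markers, PECAM1 passed detection in 4 of the 5 wtDFNA5 samples and 5 of the 6 mutDFNA5 samples, KDR on 1 wtDFNA5 array, and CDH5, TEK and VWF on none (sums of 682 to 748 and 649 to 753). Of 4 blood cell markers, CD14 was detected on 4 arrays of each group and PTPRC, CD3E and LYZ on none (sums of 550 to 599 and 554 to 601). Neither PECAM1 (-0.04) nor CD14 (-0.04) was called. In bulk RNA a change per cell and a change in which cells survive cannot be told apart.

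ADAMTS1, a secreted metalloproteinase that cuts proteoglycans of the extracellular matrix, had the largest change of the 7. Its probe (ILMN_1673566) read 9.18, 8.95, 9.26, 9.10 and 9.41 log2 on wtDFNA5 replicates 1 to 5. On the 6 mutDFNA5 arrays it read from 10.30 to 10.60, with a median of 10.36. The dimmest mutDFNA5 array thus stood clear of the brightest wtDFNA5 array, and the 6 mutDFNA5 arrays lay closer together than the gap between the groups. The mean rose from 9.18 ± 0.17 (SD, n = 5) to 10.42 ± 0.13 (SD, n = 6), a log2 change of 1.24 (95% confidence interval 1.06 to 1.43; 2.37-fold; limma adjusted p = 1.49e-09). It was the 9th largest rise of the 9653 genes.

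GEM is a small GTPase of the RGK family that is known to restrain voltage-gated calcium channels. The annotation ties 3 probes to it. The brightest, ILMN_1677092, read 7.56, 7.42, 7.84, 7.49 and 7.39 on wtDFNA5 replicates 1 to 5, and from 7.93 to 8.41 (median 8.18) in mutDFNA5. ILMN_2367883 read 7.46, 7.201, 7.50, 7.28 and 7.64 in wtDFNA5 and from 8.02 to 8.45 (median 8.16) in mutDFNA5. With both probes all 6 mutDFNA5 arrays were above all 5 wtDFNA5 arrays, and the wtDFNA5 signals were at the edge of detection: 4 of 5 arrays passed with the first probe and 3 of 5 with the second, against 6 of 6 mutDFNA5 arrays with each. The log2 change was 0.63 (0.44 to 0.83; limma adjusted p = 0.000136) with the first probe, the 44th largest rise of 9653 genes. With the second it was 0.77 (0.58 to 0.96; limma adjusted p = 6.21e-06). When background was subtracted (normexp) the change of the first probe was 1.27, with the same direction and call. The third probe, ILMN_1678968, is annotated to another transcript record of GEM. It passed detection on a single wtDFNA5 array and in none of the 6 mutDFNA5 samples, and its log2 difference without the detection filter was 0.07 (-0.11 to 0.25).

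CCN2 and CCN1 encode secreted matricellular proteins of 1 family, connective tissue growth factor and CYR61, and both are standard readouts of YAP and of SRF. CCN2 was measured by 2 probes. ILMN_1699829 read 8.99, 8.40, 8.67, 8.53 and 8.65 on wtDFNA5 replicates 1 to 5, and from 8.87 to 9.19 (median 9.02) in mutDFNA5. ILMN_2115125 read 8.45, 8.43, 8.58, 8.52 and 8.63 in wtDFNA5, and from 8.60 to 9.14 (median 8.998) in mutDFNA5. The groups touched with both probes. With the first, wtDFNA5 replicate 1 reached into the mutDFNA5 range and 3 of 6 mutDFNA5 arrays were above all wtDFNA5 arrays. With the second, replicate 1 was among the low arrays, and 5 of 6 mutDFNA5 arrays were above, all but replicate 5. The log2 changes were 0.39 (0.20 to 0.59; 1.31-fold; limma adjusted p = 0.0119) and 0.41 (0.22 to 0.60; 1.33-fold; limma adjusted p = 0.00741). The changes of the 2 probes differed by 0.02 (95% confidence interval -0.25 to 0.28 from the pooled variance; two-sided exact permutation p = 0.907).

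CCN1, by contrast, spread widely in both groups. Its probe (ILMN_2188264) read 10.45, 10.11, 10.57, 10.84 and 10.39 on wtDFNA5 replicates 1 to 5, and from 10.20 to 10.85 (median 10.60) in mutDFNA5. The 2 ranges covered almost the same span, with wtDFNA5 replicate 4 level with the highest mutDFNA5 array. The log2 change was 0.08 (-0.16 to 0.32; limma adjusted p = 0.736), and it was -0.013 without wtDFNA5 replicate 2, the lowest array. The difference between the change of CCN2 and that of CCN1 was 0.31 (two-sided exact permutation p = 0.0303 over 462 arrangements of the arrays; 0.0455 after adjustment over the 3 such pairs tested, which were chosen after the values were seen). That difference was above all wtDFNA5 arrays in only 2 of 6 mutDFNA5 arrays. It ran from 0.20 without wtDFNA5 replicate 4 (p = 0.0810, exact permutation test) to 0.40 without replicate 1 as single arrays were left out, and p was above 0.05 on leaving out any one of 5 arrays (wtDFNA5 replicates 3 and 4, mutDFNA5 replicates 2, 5 and 6).

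ANKRD1 encodes a stress-responsive ankyrin repeat protein of muscle and other cells, and with CCN1 and CCN2 makes up the usual YAP readout. It was detected on all arrays. The probe (ILMN_1716264) read 8.15, 8.03, 8.17, 8.003 and 8.17 on wtDFNA5 replicates 1 to 5, and from 7.70 to 8.04 (median 7.96) in mutDFNA5. The mutDFNA5 arrays lay at the bottom of the wtDFNA5 range or under it, 3 of 6 below every wtDFNA5 array. The log2 change was -0.18 (-0.34 to -0.02), the only negative one among the 7 tested genes, and it did not pass the test (limma adjusted p = 0.159). The change of CCN2 exceeded that of ANKRD1 by 0.57 (two-sided exact permutation p = 0.00216, the smallest that 462 arrangements allow; 0.00649 after adjustment), in 6 of 6 mutDFNA5 arrays. As with CCN2 and CCN1, this pair was chosen after the values were seen, so the p is not independent of that choice. The difference between the 2 changes lay between 0.53 and 0.65 as each array was left out. It reached 0.85 under the other processing settings. The 2 genes share the TEAD motif in the windows printed above, with 3 copies in CCN2 and 2 in ANKRD1.

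**Figure D2:**
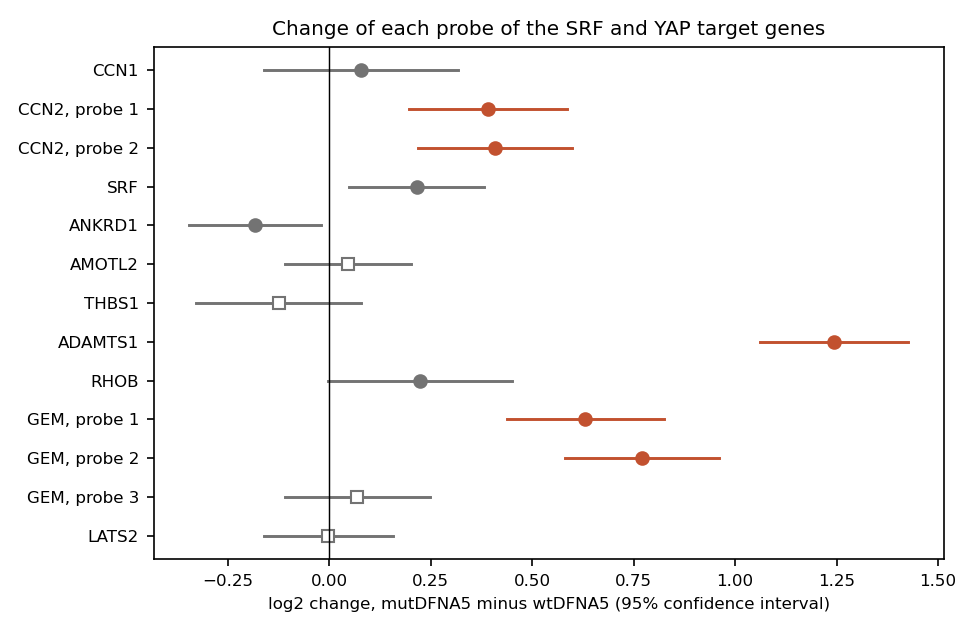
Log2 change (mutDFNA5 minus wtDFNA5, horizontal axis) of each of the 13 probes with its 95% confidence interval from limma. Orange circles were called (adjusted p under 0.05), grey circles were tested and not called, and open squares failed the detection filter and are shown from a fit without it; ADAMTS1 at 1.24 stands farthest from 0, and ANKRD1 at -0.18 is the lowest.

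SRF and RHOB were both higher on average in mutDFNA5 without passing the test. Each was called when its highest wtDFNA5 array was left out, a step that by itself widens the difference. SRF, whose own promoter carries the CArG boxes printed above, read 11.04, 11.02, 10.92, 11.38 and 11.04 on wtDFNA5 replicates 1 to 5 and from 11.22 to 11.34 (median 11.30) in mutDFNA5 (ILMN_1803398). After normalization, replicates 1, 2, 3 and 5 of wtDFNA5 lay below all mutDFNA5 arrays, and replicate 4 above them all. Before normalization, replicate 4 of wtDFNA5 read 10.67, the lowest SRF signal of the 11 arrays. The log2 change was 0.22 (0.05 to 0.38; limma adjusted p = 0.102). Without wtDFNA5 replicate 4, the array with the lowest median before normalization, it was 0.29 with a limma adjusted p of 0.0176. Whether the state of that array has a part in its SRF value was not tested.

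RHOB is a short-lived small GTPase of endosomes, induced early by growth factors and stress. Its probe (ILMN_1802205) read 10.10, 9.82, 9.57, 9.26 and 9.57 on wtDFNA5 replicates 1 to 5 and from 9.77 to 10.10 (median 9.87) in mutDFNA5. Replicate 2 of wtDFNA5 lay within the mutDFNA5 range, replicate 1 just above it (10.102 against 10.099) and the other 3 below it. The wtDFNA5 SD was 0.31 and the mutDFNA5 SD 0.12. The log2 change was 0.22 (-0.0029 to 0.45; limma adjusted p = 0.224), with 0.33 (limma adjusted p = 0.0395) without wtDFNA5 replicate 1, the highest array, and 0.12 (limma adjusted p = 0.510) without replicate 4, the lowest.

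AMOTL2, a scaffold that holds YAP at cell junctions, THBS1, the matricellular protein thrombospondin 1, and LATS2, a kinase that inactivates YAP, are all induced by YAP in other settings. Here each had 1 probe. AMOTL2 was detected on 0 of 5 wtDFNA5 arrays and 1 of 6 mutDFNA5 arrays, with signals from 7.18 to 7.36 and from 7.19 to 7.40. THBS1 (6.81 to 7.29 and 6.74 to 7.23) and LATS2 (7.09 to 7.27 and 7.01 to 7.32) were detected on no array. The groups overlapped for all 3, and the signals were too close to background for a fold change in either direction to be read.

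The arrays of a group did not keep one order across the 7 tested genes. In mutDFNA5, replicate 5 was the lowest array for 5 of the 7 and the highest for 1 (SRF), while replicate 4 was the highest for 3. In wtDFNA5, replicate 2 was the lowest for 3 of the 7, and no replicate was the highest for more than 2. The calls of ADAMTS1, GEM and CCN2 were kept when any single array was left out, CCN2 with log2 changes from 0.33 (without wtDFNA5 replicate 2, limma adjusted p = 0.0400) to 0.48 (without wtDFNA5 replicate 1).

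**Figure D3:**
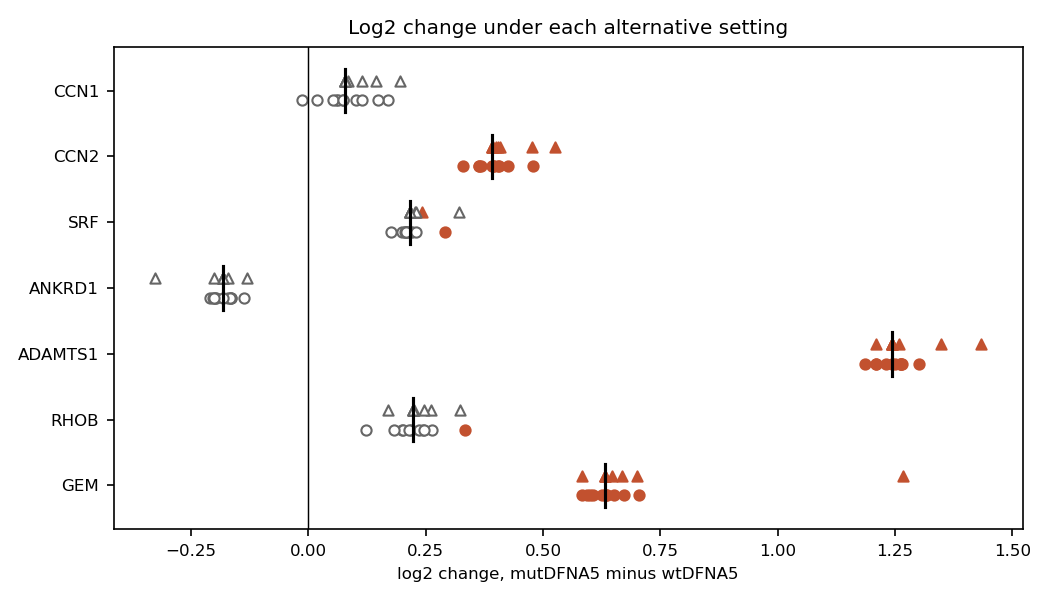
Log2 change (mutDFNA5 minus wtDFNA5, horizontal axis) of the 7 tested genes with each array left out in turn (circles) and under the other processing settings (triangles); filled orange symbols were called, open symbols were not, and black bars mark the value as reported. SRF is called in 2 settings and RHOB in 1, and CCN1 crosses 0 in 1.

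Related genes were followed in lists drawn up with earlier results of these data known. Of all genes tested, 4.05% were called higher and 4.92% lower. At an unadjusted p under 0.05, 1061 of the 9653 were higher and 1240 lower. Among 6 genes for SRF cofactors, 4 were tested and 0 were called in either direction by limma (1 higher and 0 lower at an unadjusted p under 0.05). By their brightest probes no tested cofactor had a log2 change beyond 0.19 (ELK1, adjusted p = 0.146). ELK4, a ternary complex factor like ELK1, had the opposite sign (-0.13 and -0.20 with its 2 tested probes, adjusted p = 0.381 and 0.105), and MRTFA (-0.03) and MRTFB (0.03) stayed near 0. The median change of the 4 was -0.0032.

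Of 24 cytoskeletal SRF targets, 20 were tested, and their median was 0.12. Of the 20, 3 were called higher and 0 lower, against 4.05% and 4.92% of all genes tested. At an unadjusted p under 0.05 the counts were 6 and 1. VCL (vinculin, which links adhesions to actin) ran from 12.21 to 12.56 in wtDFNA5 and from 12.67 to 12.99 in mutDFNA5, a log2 change of 0.48 (limma adjusted p = 0.000638), and a second probe gave 0.40 (limma adjusted p = 0.0130). CFL1 (cofilin, which severs actin filaments) changed by 0.30 and ZYX (zyxin, an adhesion protein) by 0.26, with limma adjusted p of 0.0285 and 0.0341. A second ZYX probe gave 0.38 (limma adjusted p = 0.00216). By the brightest probes of VCL, CFL1 and ZYX, all 6 mutDFNA5 arrays were above all wtDFNA5 arrays. That held for 2.78% of all genes tested, and these 3 genes were named because they were called. With the second VCL probe, 5 of 6 mutDFNA5 arrays were above. The core list members ACTB (0.14), TPM1 (-0.0017) and ACTA2 (-0.07) were not called. For ACTG1 the 2 probes disagreed: the brighter gave -0.17 (adjusted p = 0.206, limma) and the other 0.40 (adjusted p = 0.00138, limma), so no direction is given for that gene.

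Of 17 further targets of YAP and TEAD, 7 were tested, with a median of 0.09. Of the 7, 2 were called higher and 0 lower, against 4.05% and 4.92% of all genes tested. At an unadjusted p under 0.05 the counts were also 2 and 0. FJX1, a secreted Golgi-associated protein related to fly four-jointed, ran from 9.98 to 10.11 in wtDFNA5 and from 10.61 to 10.98 in mutDFNA5, a log2 change of 0.72 (limma adjusted p = 1.13e-06). ASAP1, an Arf GTPase-activating protein of adhesions, changed by 0.30 and 0.29 with its 2 tested probes (limma adjusted p = 0.0266 and 0.0353). The other 5 tested members, CRIM1, FOXF2, GADD45A, NT5E and PTPN14, had log2 changes between -0.04 and 0.13. AXL, F3, IGFBP3 and 7 others were not bright enough to be tested.

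None of the 13 tested genes of 18 for the Hippo pathway and its TEAD factors was called in either direction by limma. Their median was 0.18. At an unadjusted p under 0.05, 5 were higher and 1 lower, against 1061 and 1240 of all 9653 genes tested. YAP1 read 9.27 ± 0.22 in wtDFNA5 and 9.54 ± 0.19 in mutDFNA5 (log2 change 0.26; limma adjusted p = 0.114), and its relative WWTR1 (TAZ) changed by 0.12 (adjusted p = 0.434). The kinase STK4 (MST1) had the smallest p of the list (0.25; limma adjusted p = 0.0590). TEAD4 gave -0.18 with its brightest probe and 0.12 with the other, neither called, and TEAD2 gave -0.0035.

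All 19 relatives of CCN1, CCN2, THBS1 and ADAMTS1 that were on the array were detected too seldom to be tested (4 CCN genes, 3 thrombospondins and 12 ADAMTS genes), so these 4 genes could not be set beside a measured relative other than each other.

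**Figure D4:**
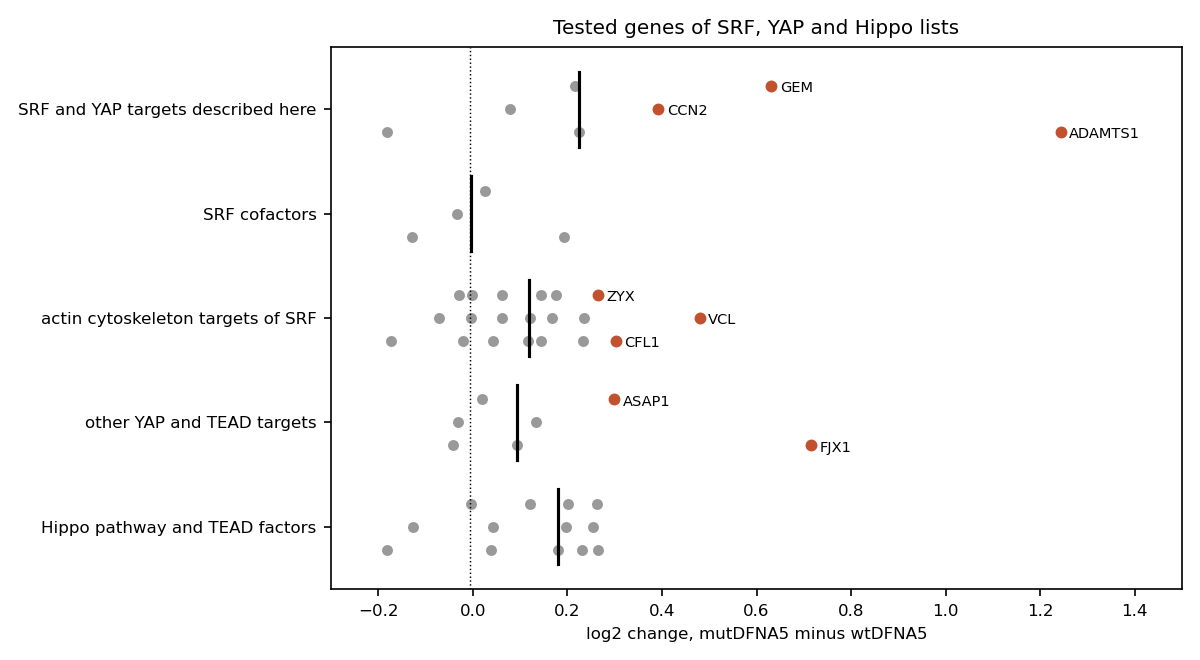
Log2 change (mutDFNA5 minus wtDFNA5, horizontal axis) of every tested gene of 5 lists, 1 point per gene by its brightest probe, with called genes in orange and named, list medians as black bars and the median of all 9653 genes as a dotted line. Every called gene in these lists lies to the right of 0, from ZYX at 0.26 to ADAMTS1 at 1.24.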

How the data were processed

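Labelled cRNA from total RNA of HEK293T cells was read on Illumina HT12 beadchips, with a separate array for each sample. The authors deposited log2 signals per probe without normalization between arrays, each with a detection p-value that the authors' scanner software derived from negative control beads. They also deposited quantile-normalized log2 values, used only as an alternative. The study's methods name beadarray, quantile normalization and limma, and mention no background correction for these arrays. The submitters' processing notes give limma 3.24.4.

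The signals were quantile normalized and fitted with limma 3.58.1 in R 4.3.3 (mutDFNA5 minus wtDFNA5, 11 arrays, no covariate; two-sided moderated test; Benjamini-Hochberg over 14542 probes). The values differed from the authors' table by at most 0.019. The test took in probes whose detection p was below 0.01 in 5 or more of the 11 arrays. Without background subtraction, changes of dim probes are understated, and quantile normalization would hide a shift of most transcripts. Probes were named through a platform annotation for a later HT12 version than the methods name (27916 of 42000 probes with 1 symbol, 7 with several and unnamed, 14077 not listed). Symbols were updated through RefSeq. The brightest tested probe stood for its gene. Named genes were the 10 described, with every probe, and from each other list the called genes (at most 4, by absolute change) or, with none called, the gene with the smallest p; other list genes were named after their values were seen.

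Members and lists were chosen with earlier results of these data known. Differences between the changes of 2 probes were tested by exact permutation over arrays, a test added after the values were seen. The fit was tested on simulated data, in which it recovered 14% of log2 changes of 0.25, 76% of 0.5 and 100% of 1. The simulation used independent normal noise, no normalization step and far fewer changed probes than were called here. Its rates therefore need not hold for these arrays. A gene that was not called may still have changed by a small amount. The number of arrays limits the precision. Promoters (RefSeq, GRCh38.p14) were scanned with Python 3.11.15. One further gene list was analysed and is not reported here.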

Additional observations from a re-analysis of the deposited data

Results flagged for a closer look

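In 26 combinations of a probe and a group, the highest and lowest arrays were compared with their neighbours by Dixon's test, which chance alone passes in about 1 of 20 groups. It picked out 2, both on wtDFNA5 replicate 4. That array read 11.38 for SRF after normalization, with the next wtDFNA5 array at 11.04 and the lowest at 10.92. Before normalization its SRF signal was 10.67, the lowest of the 11 arrays. The same array read 7.44 after normalization for the third GEM probe (ILMN_1678968), with the next at 7.11 and the lowest at 6.999. This was the only array on which that probe was detected. The cause was not tested.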

How the results depend on the processing

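The calls of ADAMTS1 and CCN2 held in all 20 alternatives and that of GEM in the 19 in which it could be tested (its log2 change ran from 0.58 to 1.27, the highest with normexp); GEM left the test when detection on all 11 arrays was required. The number of these genes called higher was 2 of 6 there, 4 of 7 with array weights (SRF at 0.24, limma adjusted p = 0.0438) and without wtDFNA5 replicates 1 or 4, and 3 otherwise; 0 were called lower throughout. CCN1 ran from -0.013 to 0.17, and the difference between the 2 CCN2 probes from -0.087 to 0.055, as single arrays were left out. ANKRD1 stayed negative and not called (-0.33 to -0.13). Over all probes, 569 were called higher and 627 lower. With arrays set to a common median instead of quantile normalization the counts were 376 and 72, the median change of all genes was 0.07, and 16.7% of called genes were lower against 54.8% as reported. Without the detection filter 400 probes were called lower. Correlations of same-numbered arrays ran from -0.06 to 0.11 over 5 pairs, and replicate 4 of wtDFNA5 correlated best with its own number. These correlations cannot show whether the arrays were paired. A replicate block gave 374 higher and 388 lower and changed no call among the 10 genes. With that block the calls of CFL1, ASAP1 and ZYX were lost (limma adjusted p = 0.0533, 0.0705 and 0.0851). CFL1 was lost in 9 of 20 alternatives, ZYX in 8 and ASAP1 in 6, while VCL and FJX1 were kept in all. Of the cytoskeletal targets 1 to 4 were called higher and 0 lower, except 1 lower with a common median, and of the Hippo and TEAD genes 0 to 2. The cause of these shifts was not tested.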
